A study of Sus scrofa with 8 samples.

Results

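Macrophages and complement C1q were followed in biceps femoris, a hind-limb muscle, through 10 marker genes: LAPTM5, CTSS, SPI1, C1QA, C1QB, C1QC, CD14, CD68, CD163 and TYROBP. They were chosen by name, and every probe set to which the platform's annotation gives one of these symbols was taken. The array carried 13 such probe sets for 8 of the 10 genes, out of 23935 probe sets and 6765 named genes in all. No probe set used here was named C1QB or CD68. For each gene the probe set of highest mean log2 level over the 8 arrays led. All 8 lead probe sets had a mean above the level used as a filter on dim probe sets, 5.27 on the log2 scale, and 4 further probe sets did not.

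The muscle came from female domestic piglets kept on a ventilator under isoflurane for 5 days, which models acute quadriplegic myopathy, a limb weakness of intensive care. The 4 control arrays are labelled as sedation and ventilation, and the 4 corticosteroid arrays as piglets that also received bolus hydrocortisone, a glucocorticoid. The treatment text of the controls counts 4 piglets, on average 25.5 kg, and adds Escherichia coli endotoxin at 36 µg/kg/h for 1 h, which their source label leaves out. That of the corticosteroid samples counts 8 piglets, on average 26.4 kg, without endotoxin, and the design text of the series mentions pancuronium, a neuromuscular blocker, without saying who received it. All animals had morphine, ketamine, glucose, streptomycin and benzylpenicillin. Hydrocortisone, endotoxin and any difference in handling between the groups therefore cannot be told apart. Whether every array stands for a separate animal is not stated in the labels, and the p-values cover only the spread of these samples, which may be technical.

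Resident and recruited macrophages clear dying fibres and debris in skeletal muscle and shape its repair. PU.1, the product of SPI1, is the transcription factor that sets up the macrophage lineage. C1q, assembled from the products of C1QA, C1QB and C1QC, is the recognition subunit of the classical complement pathway and is made largely by macrophages. CD14 and CD163 are surface receptors, TYROBP is a signalling adaptor, and LAPTM5 and CTSS work in endosomes and lysosomes. In the current porcine gene table (assembly Sscrofa11.1) C1QA, C1QC and C1QB follow one another as neighbouring protein-coding genes, TYROBP lies beside HCST, which encodes another signalling adaptor, and CTSS lies beside the cathepsin gene CTSK.

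Most of these markers shared a high control array. Control array 2 had the highest level of the 8 arrays for all 8 lead probe sets, and for 12 of the 13 probe sets. Over all 14361 probe sets above the filter it was the highest for 17.6%. That array was singled out after its values were seen. Among the lead probe sets its excess over the mean of the other 3 controls ran from 0.40 log2 units for C1QA to 3.58 for TYROBP. The control columns were used in the row order of the deposited table, so this excess does not rest on any re-ordering of rows. The values of the corticosteroid arrays do rest on one: they were re-assigned to probe IDs sorted with full stops ignored, which moves the rows of SPI1, C1QA and CD163 and leaves the lead rows of the other 5 genes in place. With the rows as deposited, control array 2 was the highest for 7 of the 8 lead probe sets (not C1QA) and for 10 of the 13.

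**Figure D1:**
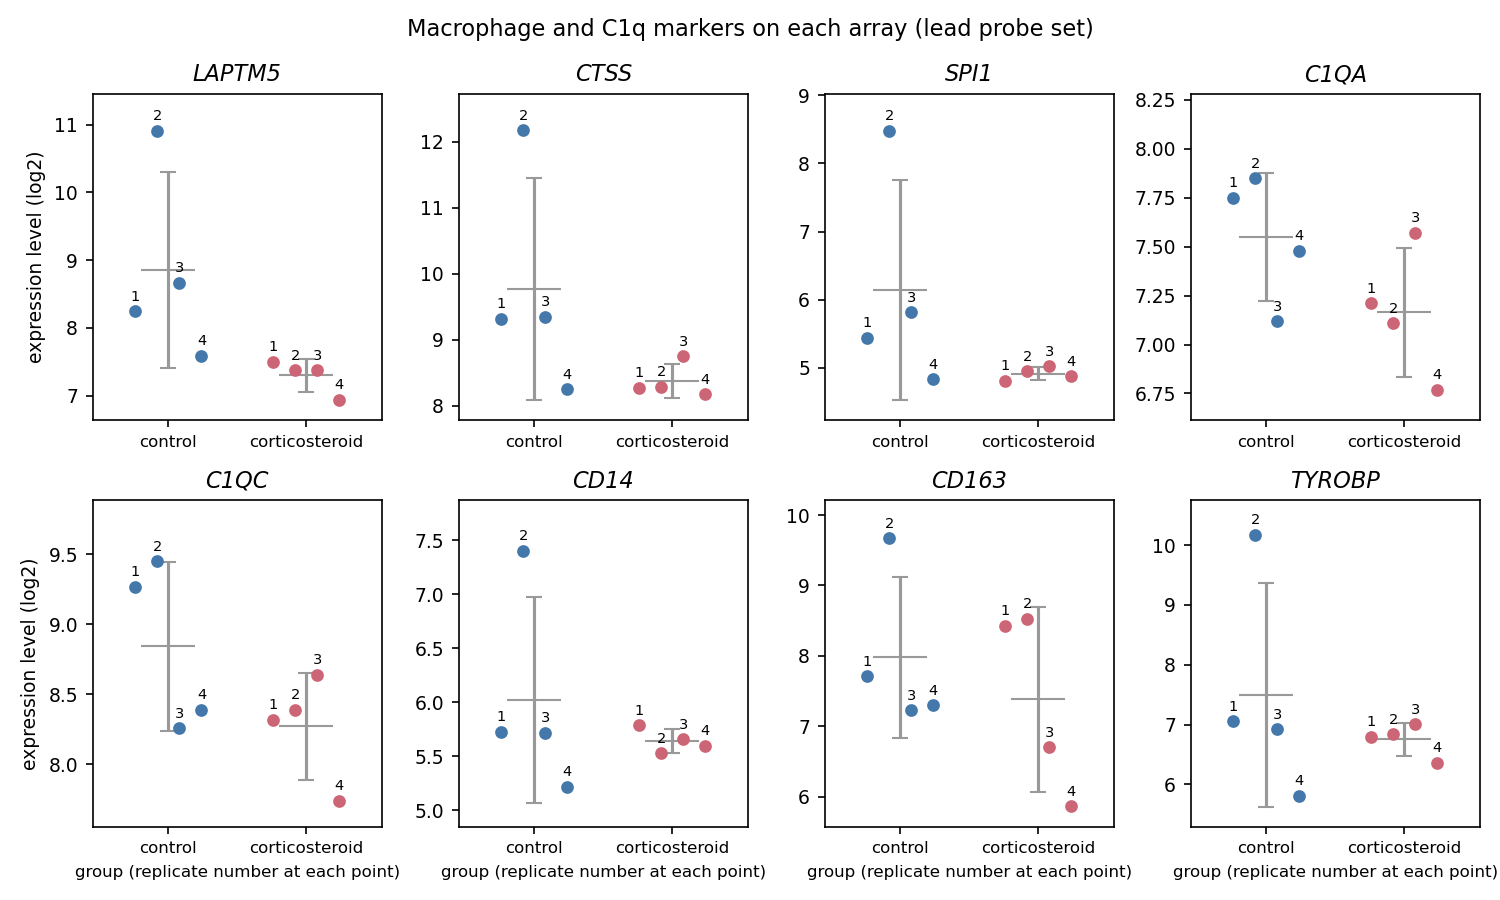
Log2 expression level (vertical axes, one scale per gene) of the lead probe set of each of the 8 genes on 4 control arrays (blue) and 4 corticosteroid arrays (red); digits are replicate numbers and grey bars the group mean with SD. Control array 2 is the highest point in every panel, and the groups are apart for LAPTM5 only.

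All 8 lead probe sets had a lower mean with corticosteroid, with a median difference of -0.67 log2 units. Among all probe sets above the filter 47.2% had a lower mean, and the median difference was 0.02. In limma, which was fitted over the whole table, 1 of the 8, LAPTM5, had an unadjusted p under 0.05, where 9.49% of all tested probe sets did (1363 of 14361). None passed after Benjamini-Hochberg adjustment over the table, with adjusted p-values from 0.481 for LAPTM5 to 0.776 for CD163. Over all genes the number passing was 0 (smallest adjusted p in limma 0.469). Without control array 2, SPI1 fell below the filter, 5 of the other 7 lead probe sets had a lower mean (48.2% of all probe sets did), and their median difference was -0.29. The count with an unadjusted p under 0.05 was then again 1, LAPTM5, against 8.70% of all probe sets. It was 3 without control array 3 (LAPTM5, C1QA and C1QC), against 6.29% of all probe sets (903), and 3 without control array 4 (LAPTM5, CTSS and SPI1), against 9.74% (1399). Without corticosteroid array 4 it was 0, against 6.23% (894). Bulk muscle RNA cannot tell fewer macrophages from less of each transcript per macrophage.

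**Figure D2:**
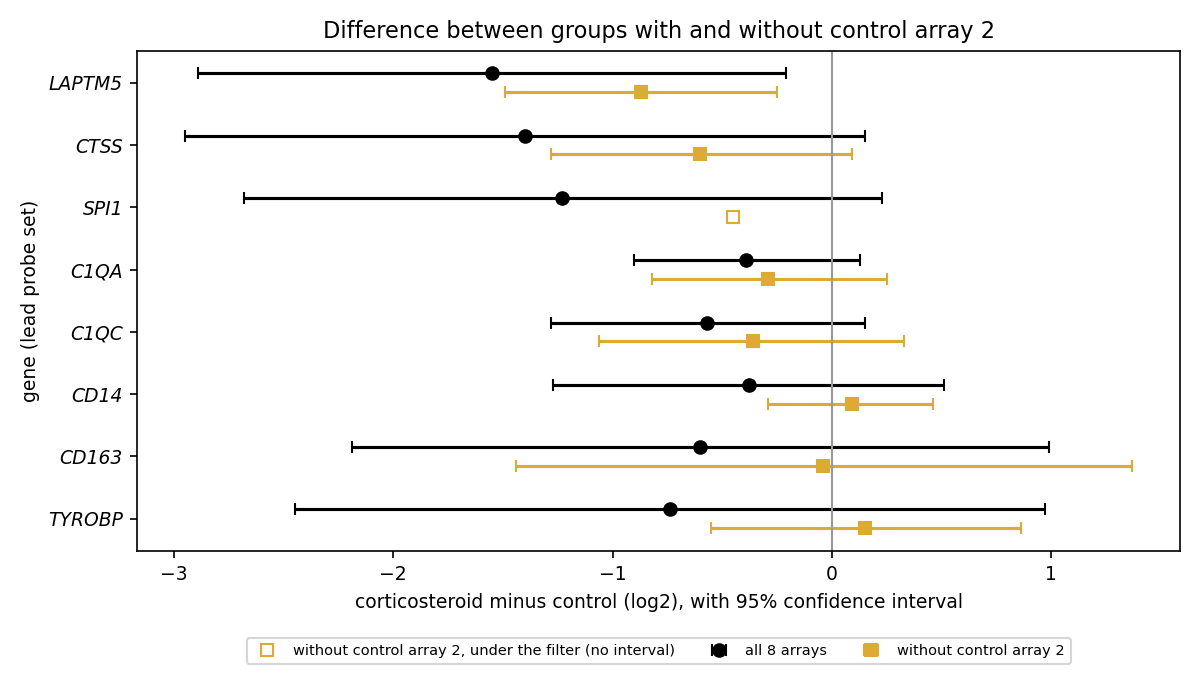
Difference in log2 level, corticosteroid minus control (horizontal axis), for the lead probe set of each gene, with the 95% confidence interval from limma, over all 8 arrays (black) and without control array 2 (yellow; SPI1 is then under the filter and drawn without an interval). Over all 8 arrays every difference is below 0 and only the LAPTM5 interval excludes 0, whereas CD14 and TYROBP lie at 0.09 and 0.15 without control array 2.

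LAPTM5 encodes a lysosomal membrane protein of blood-derived cells that dampens antigen receptor signalling. Its level was 8.25, 10.91, 8.67 and 7.59 on control arrays 1 to 4 and 7.5, 7.38, 7.38 and 6.94 on the corticosteroid arrays. All 4 controls lay above all 4 corticosteroid arrays, a separation seen downwards in 2.51% of all tested probe sets. The mean was 8.85 ± 1.44 (SD, n = 4) in controls and 7.30 ± 0.25 (SD, n = 4) with corticosteroid, a difference of -1.55 (SE 0.60, limma unadjusted p = 0.0275, adjusted p = 0.481). In geometric means this is 2.93-fold higher in controls. The exact two-sided permutation test gave p = 0.0286, the smallest that 4 arrays against 4 can give. Leaving out control array 2 gave a difference of -0.87 (SE 0.27, limma unadjusted p = 0.0113, adjusted p = 0.540). Groups that do not overlap stay apart when an array is left out, so this fit says nothing more about overlap. LAPTM5 was the one lead probe set of the 8 whose groups did not overlap.

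A second LAPTM5 probe set was dim, with a mean level of 3.48. It read 3.44, 4.52, 3.69 and 3.35 in controls and 3.22, 3.24, 3.26 and 3.13 with corticosteroid, again with no overlap. The difference was -0.54 (SE 0.22) in a limma fit with no filter (unadjusted p = 0.0342, adjusted p = 0.533).

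CTSS, cathepsin S, is a protease that trims the invariant chain during antigen presentation in macrophages and other antigen-presenting cells. Its lead probe set read 9.32, 12.18, 9.35 and 8.25 in controls and 8.28, 8.29, 8.75 and 8.18 with corticosteroid. Control array 2 stood 2.83 log2 units above the next array, and control array 4 lay among the corticosteroid arrays. The difference was -1.40 (SE 0.69, limma unadjusted p = 0.0720, adjusted p = 0.543), and -0.60 (SE 0.30, limma unadjusted p = 0.0788) without control array 2.

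The other CTSS probe sets also peaked on control array 2. The second one read 8.21, 12.24, 8.19 and 7.53 in controls and 7.67, 7.30, 7.56 and 7.39 with corticosteroid. Here control array 2 was 19.2-fold above the geometric mean of the other controls. The third was dim, at 4.58, 6.67, 4.70 and 4.24 in controls against 3.87, 4.04, 4.15 and 4.05, and on it the groups did not overlap. The differences of these probe sets were -1.56 (SE 0.87) and -1.02 (SE 0.44). All 3 thus gave a lower corticosteroid mean.

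SPI1 read 5.44, 8.48, 5.82 and 4.83 in controls and 4.81, 4.95, 5.02 and 4.88 with corticosteroid. Only the controls 1, 2 and 3 lay above the filter level of 5.27. The corticosteroid arrays spanned just 0.20 log2 units, and control array 4 lay inside that span. The difference was -1.23 (SE 0.65, limma unadjusted p = 0.0898, adjusted p = 0.560). The mean of the other 3 controls was 5.36, against 4.92 ± 0.09 (SD, n = 4) with corticosteroid, a difference of -0.45. SPI1 did not pass the filter once control array 2 was left out, so its place among the tested genes is not independent of that array.

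TYROBP, also called DAP12, carries the activating signal of receptors such as TREM2 that lack a signalling tail of their own. It read 7.06, 10.17, 6.92 and 5.81 in controls and 6.80, 6.84, 7.01 and 6.36 with corticosteroid. Control array 2 was 11.9-fold above the geometric mean of the other controls, and control array 4 was the lowest of the 8 arrays. The difference was -0.74 (SE 0.76, limma unadjusted p = 0.357, adjusted p = 0.738). It was 0.15 without control array 2, with a 95% interval from -0.55 to 0.86.

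CD14 is the co-receptor that hands lipopolysaccharide, the active part of endotoxin, to TLR4. Its lead probe set read 5.73, 7.40, 5.72 and 5.22 in controls and 5.79, 5.53, 5.66 and 5.60 with corticosteroid. Apart from control array 2 the controls reached no higher than the corticosteroid arrays. The difference was -0.38 (SE 0.40, limma unadjusted p = 0.367, adjusted p = 0.743), and 0.09 without control array 2 (95% interval -0.29 to 0.46). The second CD14 probe set, at a mean of 5.27, lay at the filter level but under it. It read 5.51, 5.12, 5.12 and 4.98 in controls and 5.25, 5.17, 5.43 and 5.56 with corticosteroid. It was the one probe set of the 13 that was not highest on control array 2, and the one with a higher corticosteroid mean (0.17, SE 0.15, limma with no filter, unadjusted p = 0.296). The CD14 probe sets thus disagree on control array 2 and, over all 8 arrays, in direction. With that array left out the second one differed by 0.15, in the same direction as the lead.

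**Figure D3:**
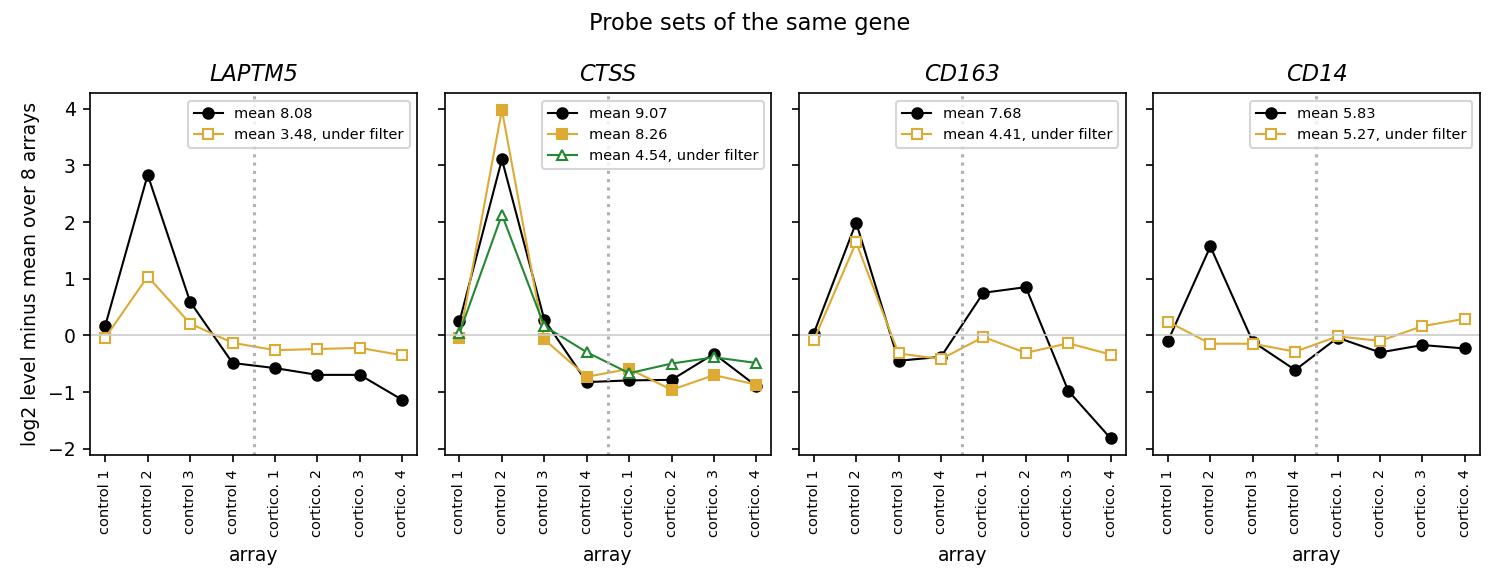
Log2 level minus the probe set's mean over the 8 arrays (vertical axis) for every probe set of the 4 genes with several, by array (horizontal axis, dotted line between the groups); open symbols are under the filter, and lines join the arrays of a probe set without implying an order. The LAPTM5, CTSS and CD163 probe sets all peak on control array 2, and the second CD14 probe set (mean 5.27) does not.

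CD163 is the macrophage receptor that takes up haemoglobin bound to haptoglobin, and glucocorticoids are known to induce it in monocytes and macrophages. It read 7.71, 9.67, 7.23 and 7.30 in controls and 8.43, 8.53, 6.70 and 5.86 with corticosteroid. Corticosteroid arrays 1 and 2 lay above 3 of the 4 controls, and corticosteroid arrays 3 and 4 lay below all of them. Its corticosteroid SD of 1.32 was the highest of the 8 lead probe sets, the others lying between 0.09 and 0.38. The difference was -0.60 (SE 0.71, limma unadjusted p = 0.417, adjusted p = 0.776). It was -0.04 without control array 2 (95% interval -1.44 to 1.37) and 0.47 without control array 2 and corticosteroid array 4. The second CD163 probe set was dim (mean 4.41) and read 4.32, 6.05, 4.09 and 3.99 in controls and 4.38, 4.10, 4.27 and 4.07 with corticosteroid. It shared the peak on control array 2 but did not spread the corticosteroid arrays in the same way. Both CD163 rows are among those moved by the re-ordering.

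Control array 2 stood out least for the C1q genes. C1QA read 7.75, 7.85, 7.12 and 7.48 in controls and 7.21, 7.11, 7.57 and 6.77 with corticosteroid. C1QC read 9.27, 9.45, 8.26 and 8.39 in controls and 8.32, 8.39, 8.64 and 7.74 with corticosteroid. In both genes control arrays 2 and 1 were the highest of the 8, corticosteroid array 3 the highest of its group and corticosteroid array 4 the lowest of all. Control array 2 exceeded the next array by only 0.10 log2 units for C1QA and 0.18 for C1QC, against 1.15 to 3.11 for the other 6 lead probe sets.

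The C1QA difference was -0.39 (SE 0.23, limma unadjusted p = 0.123, adjusted p = 0.587), with means of 7.55 ± 0.33 (SD, n = 4) in controls and 7.16 ± 0.33 (SD, n = 4) with corticosteroid. For C1QC it was -0.57 (SE 0.32, limma unadjusted p = 0.108, adjusted p = 0.572), with means of 8.84 ± 0.60 (SD, n = 4) and 8.28 ± 0.38 (SD, n = 4). They were -0.29 and -0.36 without control array 2. In both genes the groups overlapped, and neither difference passed the limma test. The row of C1QA is moved by the re-ordering and that of C1QC is not. With the rows as deposited the corticosteroid mean of C1QA was 9.64, which would put it above the control mean.

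Other genes of monocytes and macrophages, from a list of 41 of which 24 were on the array and 18 above the filter, showed the same high array. Control array 2 was the highest for 15 of the 18, against 17.6% of all probe sets above the filter. CD86, among the 15, read 8.74 there and at most 5.27 on any other array. Its place among the 18 is therefore not independent of control array 2. Of the 18, 15 had a lower mean with corticosteroid (median difference -0.77), and 1 had an unadjusted p under 0.05. Without control array 2, 10 of 17 had a lower mean and the median difference was -0.11. In that fit 2 (FCGR2B and LGMN) had an unadjusted p under 0.05 in limma, against 8.70% of all probe sets. No probe set of the whole table passed the adjusted threshold there. The inhibitory Fc receptor FCGR2B read 7.04, 8.16, 7.29 and 7.05 in controls and 6.92, 6.84, 6.66 and 6.22 with corticosteroid, with no overlap (difference -0.72, SE 0.28, limma unadjusted p = 0.0269, adjusted p = 0.481). It was -0.47 with control array 2 left out. FCGR2B was the 1 gene of the 18 with no overlap downwards, a separation seen in 2.51% of all tested probe sets. The lysosomal protease legumain (LGMN) differed by -1.13 (SE 0.50) and by -0.55 without control array 2, and the kinase LYN by -0.57 (SE 0.29) and -0.26. FOLR2, a folate receptor of resident macrophages, went the other way, at 8.83, 7.48, 7.72 and 8.16 in controls and 7.87, 8.75, 8.93 and 9.65 with corticosteroid (difference 0.75, SE 0.40, limma adjusted p = 0.562). Control array 2 was the lowest of the 8 for FOLR2.

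Tested genes around the adaptor and receptor members also had lower corticosteroid means, but control array 2 was not the highest for all of them. For the partners and signalling genes of TYROBP, 8 of 17 were measured and 4 tested. All 4 (LYN, FCER1G, FYN and SIRPA) were highest on control array 2 and had lower corticosteroid means, 0 of them at an unadjusted p under 0.05 in limma. Without control array 2, 3 of the 4 were lower (median difference -0.10, from -0.51), and SIRPA differed by 0.24. FCER1G, the Fc receptor gamma chain and, like TYROBP, a signalling adaptor, read 6.45, 9.20, 6.36 and 5.64 in controls and 6.02, 5.99, 6.01 and 6.15 with corticosteroid. It differed by -0.87 (SE 0.63) over all arrays and by -0.11 without control array 2. For the CD14 and TLR4 pathway, 11 of 17 genes were measured and 6 tested, all 6 with lower corticosteroid means (median difference -0.45) and 0 at an unadjusted p under 0.05 in limma. Control array 2 was the highest for 4 of these 6, and for MAP3K7 it lay only 0.01 log2 units above the mean of the other controls. TLR4 itself read 6.48, 8.09, 5.88 and 6.15 in controls and 6.26, 6.03, 6.20 and 5.96 with corticosteroid. MYD88, its adaptor, differed by -0.52 (SE 0.27), MAP3K7 by -0.37 (SE 0.22) and the inhibitor NFKBIA by -0.23 (SE 0.17). Without control array 2 the 6 means were still lower, with a median of -0.24.

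Among myeloid transcription factors 7 of 18 genes were tested, 5 with lower and 2 with higher means. EGR1 differed by -1.23 (SE 0.53, limma unadjusted p = 0.0439). Its level was 7.58 on control array 2 and 4.33 to 5.05 with corticosteroid. Like SPI1 it did not pass the filter without control array 2, where its mean difference was -0.68. CEBPB differed by 0.62 (SE 0.27, limma unadjusted p = 0.0483), while IRF1 and IRF8, a partner of PU.1, differed by -0.30 (SE 0.17) and -0.42 (SE 0.27). With control array 2 left out, 3 of 6 means were lower (median -0.06, from -0.22), 0 had an unadjusted p under 0.05 in limma, and IRF8 differed by -0.14. For other lysosomal genes 20 of 26 were tested, 16 with lower means, and control array 2 was the highest for 17 of the 20. The acid phosphatase ACP5 read 6.32, 6.16 and 5.87 on control arrays 1, 3 and 4 and 5.76, 5.36, 5.38 and 5.64 with corticosteroid, and control array 2 lay 3.88 log2 units above the mean of the other controls. Its groups did not overlap (difference -1.55, SE 0.79, limma adjusted p = 0.549, and -0.58 without control array 2). The limma unadjusted p of ACP5 was 0.0781 over all arrays and 0.00772 without control array 2. The sphingolipid activator PSAP differed by -0.59 (SE 0.32), also with no overlap, and by -0.23 without control array 2. ACP5 and PSAP were the 2 of the 20 with no overlap downwards, against 2.51% of all tested probe sets. CST3, the secreted inhibitor of cathepsins, went the other way (0.49, SE 0.21, limma adjusted p = 0.524). Without control array 2, 11 of the 20 lysosomal means were lower. In that fit 3 of the 20 had an unadjusted p under 0.05 in limma, 2 of them lower, against 8.70% of all probe sets.

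Most other complement genes had slightly higher corticosteroid means. Of 30 listed genes 21 were measured and 16 tested, 12 with higher and 4 with lower corticosteroid means (median difference 0.20). Control array 2 was the highest for 5 of the 16. The C1 inhibitor SERPING1 read 9.93, 10.27, 9.61 and 9.83 in controls and 10.07, 10.48, 10.37 and 10.51 with corticosteroid (difference 0.45, SE 0.19, limma unadjusted p = 0.0405, adjusted p = 0.512). Without control array 2 it differed by 0.57 (limma unadjusted p = 0.011). In that fit 3 of 15 complement genes had lower corticosteroid means (median difference 0.26). Of the 15, 1 had an unadjusted p under 0.05 in limma, against 8.70% of all probe sets. The proteases that bind C1q, C1R and C1S, had means of 10.53 and 11.31 in controls and 10.73 and 11.60 with corticosteroid. Factor D (CFD) differed by 0.44 (SE 0.22), C8G by 0.37 (SE 0.17) and C8B by 0.26 (SE 0.13). The chaperone-like inhibitor clusterin (CLU) stood apart from them, at 9.82, 12.55, 9.62 and 8.26 in controls and 8.35, 9.19, 8.92 and 9.07 with corticosteroid. No test compared the direction of the C1q genes with that of the other complement genes.

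Markers of leukocytes as a whole moved with control array 2, and those of several single lineages were dim. Of 10 panleukocyte genes 7 were measured and 6 tested, and control array 2 was the highest for 5. Without that array 5 were tested, 4 of them with lower corticosteroid means (median difference -0.27). Of these 1 had an unadjusted p under 0.05 in limma, against 8.70% of all probe sets. The integrin chain ITGB2 read 5.96, 9.24, 6.01 and 5.77 in controls and 5.58, 5.58, 5.62 and 5.08 with corticosteroid, with no overlap (difference -1.28, SE 0.68, limma adjusted p = 0.560, and -0.45 without control array 2). The limma unadjusted p of ITGB2 was 0.0908 over all arrays and 0.0285 without control array 2. ITGB2 was the 1 gene of the 6 with no overlap downwards, against 2.51% of all tested probe sets. CD53 was at 10.87 and LCP1 at 9.52 on control array 2, where the other 7 arrays reached at most 7.14 and 5.64. Like SPI1, LCP1 did not pass the filter without control array 2, so its place among the tested genes is not independent of that array. Expressed as the median over the list of each gene's level minus its mean over the 8 arrays, control array 2 stood at 2.41 for the macrophage and C1q markers, 2.12 for the other macrophage genes and 2.69 for the panleukocyte genes. The other 3 controls lay between -0.55 and 0.11 for the macrophage and C1q markers, and the corticosteroid arrays between -0.79 and -0.25. For the panleukocyte genes the controls spanned -0.55 to 2.69 and the corticosteroid arrays -0.71 to -0.27.

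**Figure D4:**
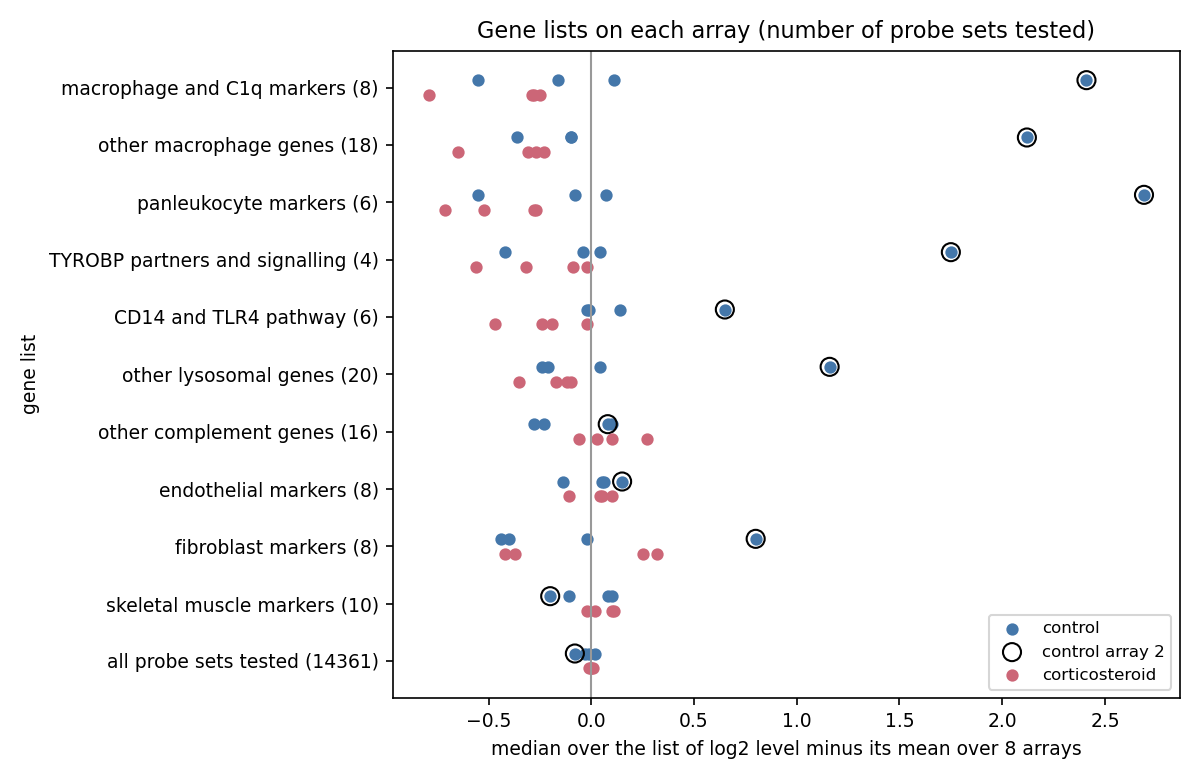
For each gene list (rows, with the number of probe sets tested), the median over its tested lead probe sets of the log2 level minus the mean over 8 arrays (horizontal axis) on each control (blue) and corticosteroid (red) array, with control array 2 circled. Control array 2 stands at 2.41 for the macrophage and C1q markers and 2.69 for the panleukocyte markers, and at 0.15 for endothelial and -0.20 for skeletal muscle markers.

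All 7 measured neutrophil markers were under the filter, with medians over the list between 4.0 and 4.49 on the control arrays. The highest of them on any array was S100A9 at 6.85, on control array 3. The 2 measured dendritic cell markers were also under the filter, as were 10 of 12 T and NK cell markers and 1 of 3 B cell markers. CD3D read between 5.23 and 5.78 on all 8 arrays. Fibroblast markers were highest on control array 2 for 5 of 8, with a centred median of 0.80 there, but not all of them moved together. COL1A2, THY1, LUM, FBLN1 and DCN stood 2.22, 1.93, 1.36, 1.30 and 1.12 log2 units above the mean of the other controls there. PDGFRB and DPT stood 0.32 and 0.48 above it, whereas COL3A1, named after its values were seen, lay at -0.87 from it (6.48 against a range of 6.74 to 7.74 on the other 7 arrays). All 10 measured skeletal muscle markers were above the filter. Endothelial markers stood at 0.15 on control array 2 and skeletal muscle markers at -0.20, but fast and slow fibre genes differed there. The fast troponins TNNT3 and TNNI2 lay at -0.86 and -0.80 from the other controls on control array 2, and the slow-fibre genes TNNT1 and MYH7 at 1.00 and 0.14. The high slow-fibre level was not particular to that array. TNNT1 read 11.94 on control array 2 and 11.86 on control array 3, where MYH7 was highest (13.15). TNNT1 and MYH7, the muscle markers of smallest p, differed between the groups by -1.78 (SE 0.40) and -1.17 (SE 0.32) with no overlap (limma adjusted p = 0.469 for each). They were the 2 of the 10 apart downwards, against 2.51% of all tested probe sets. TNNT3 went the other way, by 0.66 (SE 0.21, limma adjusted p = 0.479), also with no overlap, and 6 of the 10 muscle markers had higher corticosteroid means. Red cell markers had their own high array, control array 3, where ALAS2 was at 8.47 and the other 7 arrays reached at most 6.10. HBB was lower on all 4 corticosteroid arrays than on all controls (difference -0.55, SE 0.22, limma adjusted p = 0.483). It was the 1 of 3 tested red cell markers apart in this way, against 2.51% of all tested probe sets. The part of these cell types in the results was not tested.

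Among 5398 other named genes above the filter, the 6 most like the mean pattern of the 8 lead probe sets were taken by root mean square distance over the 8 arrays, after each was centred and divided by its SD. They were GP91-PHOX (the catalytic subunit of the phagocyte NADPH oxidase), TIPIN, VSIG4 (a macrophage receptor for complement C3 fragments), ACTR2 (an actin-nucleating subunit), ITGB2 and HK3 (a hexokinase of leukocytes), at distances from 0.22 to 0.24. The 8 lead probe sets, which define that mean, lay between 0.25 for CTSS and 0.63 for C1QA. GP91-PHOX read 6.12, 8.13, 6.25 and 5.71 in controls and 5.51, 5.55, 5.69 and 5.06 with corticosteroid, and VSIG4 read 6.80, 9.41, 6.66 and 6.59 against 6.70, 6.53, 6.76 and 6.10. All 6 had their highest value on control array 2. The likeness is a description over 8 arrays and is largely set by that array.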

How the data were processed

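The authors deposited log2 expression levels, 1 value per probe set and sample, for 23999 probe sets of an Affymetrix porcine array. The submitters' processing notes name MAS5, and how arrays were scaled to each other is not stated there. Array medians ran from 5.863 to 5.965. Control values were taken at the probe IDs listed, and corticosteroid values were re-assigned to the IDs sorted as text without full stops. This order was found from the values. It moves 39.1% of rows, and over them the means of both groups had r = 0.0997 across probe sets as deposited and 0.9888 re-ordered (0.9887 over the rows that stay). Symbols came from the platform's annotation, which gave 1 symbol to 10069 probe sets, several to 198 (not named) and none to 13732. Reporter probe sets (64) were excluded.

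The comparison used limma 3.58.1 (R 4.3.3; lmFit, eBayes with an intensity trend) over the 14361 probe sets above the 40th percentile of mean log2, with Benjamini-Hochberg adjustment at 0.05. The fit was tested on simulated data. Single probe sets also had an exact two-sided permutation test over arrays. Differences are corticosteroid minus control. The number of arrays limits the precision (median SE 0.219). Every member probe set was named, with up to 4 genes of smallest p per list and the 6 genes of like pattern. Members and lists were chosen with earlier results of these data known. C1R, C1S, CLU, COL3A1, FBLN1, LUM, THY1 and S100A9 were named outside this rule, after their values were seen. Alternatives were a replicate block, quantile normalization, median centring, other filters, an offset of 16, other variance models, array weights, averaged probe sets, rows as deposited and leaving out arrays. Tables were made with Python 3.11.15, pandas 2.3.3, numpy 2.4.6 and scipy 1.17.1. The sources name no genome build for the array values, so the gene table of assembly Sscrofa11.1 served only for gene order and no coordinates are given.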

Additional observations from a re-analysis of the deposited data

Results flagged for a closer look

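Each of the 26 sets of 4 values (13 probe sets in 2 groups) was tested for an array far from the rest of its group, by its gap to the nearest array over the group's range (Dixon's test at the 95% level). Chance flags about 1 in 20 such sets. The second CTSS probe set stood out on control array 2, at 12.24 where the nearest control was 8.21 (gap over range 0.855). The dim CD163 probe set stood out on the same array, at 6.05 where the nearest control was 4.32 (gap over range 0.839). No corticosteroid array was far from its group by this measure.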

How the results depend on the processing

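The number of arrays and signal near background (4 of 13 probe sets under the filter) limit what can be told. With rows as deposited, 5454 probe sets passed the adjusted threshold and 6101 an unadjusted p under 0.05, with 3 members (LAPTM5, C1QA and CD163) at the latter. SPI1 then differed by 0.82 and C1QA by 2.10. Both changed direction, and CD163 differed by -2.0. With no filter 2160 probe sets had an unadjusted p under 0.05, of 23935 tested. CD163 differed by 0.04 with array weights and by 0.47 without control array 2 and corticosteroid array 4, where CD14 differed by 0.10 and TYROBP by 0.28. Without control array 2 CD14 differed by 0.09 and TYROBP by 0.15. The cause of these reversals was not tested, beyond the values of that array given above. Over the 8 fits that each leave out one array, probe sets past the adjusted threshold ran from 0 to 1 (the 1 without control array 3), those at an unadjusted p under 0.05 from 894 to 1777, members at that level from 0 to 3, and the median member difference from -1.06 to -0.29. CD14 ran from -0.64 to 0.09 and TYROBP from -1.30 to 0.15. Of 148 member differences under the 19 alternatives other than the deposited rows, 142 were below 0, and the smallest adjusted p in limma was 0.382. The rest were the values of CD163, CD14 and TYROBP given above, all from array weights or from fits without control array 2. Most alternatives used the same arrays again, so this count is not one of independent checks. The deviations of same-numbered arrays correlated with r of -0.246, 0.109, 0.105 and 0.053, so the numbers were not taken to pair the samples. With the replicate block 0 probe sets passed, 1332 had an unadjusted p under 0.05, and 1 member did (median difference -0.67).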

Other observations

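Further macrophage genes, chosen after their values were seen, differed in whether control array 2 was their highest. GPNMB, a glycoprotein of phagocytes with a high lysosomal load, read 8.34, 11.77, 7.55 and 6.72 in controls and 7.0, 8.11, 7.55 and 7.26 with corticosteroid. The co-stimulatory receptor CD86 read 5.18, 8.74, 5.27 and 4.98 in controls and 5.18, 4.83, 4.81 and 4.72 with corticosteroid. Apart from control array 2 its arrays reached at most 5.27, the filter level. Its place among the tested genes is therefore not independent of control array 2. The phagosomal metal transporter SLC11A1 was under the filter on average, yet read 9.10 on control array 2, where the other 7 arrays lay between 4.19 and 4.65. The mannose receptor MRC1 read 5.38, 7.48, 5.77 and 5.71 in controls and 6.31, 6.35, 5.21 and 4.94 with corticosteroid, so that, as for CD163, corticosteroid arrays 1 and 2 lay above 3 of the 4 controls and corticosteroid arrays 3 and 4 below all of them. LYVE1 and MARCO, markers of resident and scavenging macrophages, were not highest on control array 2. LYVE1 read 5.57, 6.72, 6.84 and 6.35 in controls and 7.20, 6.66, 6.12 and 6.40 with corticosteroid. MARCO read 6.57, 6.20, 6.15 and 6.02 in controls and 6.31, 6.44, 6.49 and 6.38 with corticosteroid. Both had higher corticosteroid means, by 0.22 and 0.17.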
